A study of Sus scrofa with 92 samples.

Results

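The genes described here are 6 regulators of G protein signalling, RGS1, RGS2, RGS3, RGS4, RGS5 and RGS16, in serial liver biopsies of pigs taken through injury, hemorrhagic shock and resuscitation. They were chosen by symbol and by a measured value, the change of RGS4 from Baseline to 2 hours, so that change is given below as a description with no test. Of the 6 members, 5 had an identifier in the count table of 25322 pig genes: RGS1 (ENSSSCG00000022427), RGS3 (ENSSSCG00000005481), RGS4 (ENSSSCG00000006335), RGS5 (ENSSSCG00000006334) and RGS16 (ENSSSCG00000015550). RGS2 was not analysed here, because no identifier in the table paired with its symbol. RGS4 and RGS16 took their symbols from a gene name table. RGS1, RGS3 and RGS5 took theirs from the study's lists of genes it called in these same samples, so that their presence among the members is not independent of their having changed. All 5 passed the filter on low counts through the summed level over all libraries.

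RGS proteins switch off signals from G protein coupled receptors. A receptor that binds its ligand loads GTP onto a G protein alpha subunit, and the RGS domain speeds the hydrolysis of that GTP, which ends the signal from the alpha subunit and from the freed beta and gamma subunits. RGS1, RGS2, RGS4, RGS5 and RGS16 are small members made of little more than the RGS domain, and their mRNAs are known to change quickly when cells are stimulated, while RGS3 also exists in longer forms. In the pig assembly Sscrofa11.1 RGS4 and RGS5 are neighbours with 0 protein-coding genes between them, and so are RGS16 and RGS8.

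The animals were juvenile male Yorkshire-Landrace pigs, all fasted overnight. Carbohydrate prefed (CPF) animals were given a bolus of sugar syrup before anesthesia, and fasted (FS) animals were not. Every animal was instrumented and its spleen removed, and it then received a blunt chest injury, blood loss and a crush injury of the liver, followed by limited and then full resuscitation with fluid and shed blood. Biopsies came from the edge of the liver at Baseline (B), before the injuries but after instrumentation, and at 2, 8 and 20 hours of full resuscitation (FR2, FR8 and FR20). There was no group without injury, so that time under anesthesia, repeated biopsy and shock cannot be told apart. The labels gave 18 FS animals, of which 3 died, and 5 CPF animals, of which 2 died, and animals are numbered within a feeding group.

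The table held 92 libraries, and 88 were used: 15 FS libraries at B, 18 at each of FR2, FR8 and FR20, 5 CPF libraries at B, FR2 and FR20, and 4 at FR8. Their totals ran from 6877117 to 16613261 counts, with a median of 12072000. Of the 4 libraries left out, 1 (CPF animal 1, FR8) failed to sequence and held 0 counts of every member. The other 3 (FS animals 13, 14 and 16, B) had albumin, the main secreted protein of hepatocytes, at a CPM (the count scaled to a common library size) of 0.168 to 50.3, against 9521 to 192243 in the 88 libraries. These 3 animals therefore had no Baseline liver value. In 2 further libraries, FR2 and FR8 of FS animal 8, a block of genes was listed at exactly 0: 836 and 832 of the 8260 genes with a median count of at least 50, with 831 in both, against at most 5 in any other library. RGS16 was in that block and the other measured members were not, so RGS16 is given with and without these libraries. Beside the bulk values below, fewer cells of a type and less RNA per cell cannot be told apart.

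RGS4, an inhibitor of Gi and Gq signalling that is prominent in brain, heart and vessel walls, held 9 to 1167 counts per library with a median of 141. In FS animals its level at B was 1.26 to 10.5 CPM with a median of 4.46. At FR2 it was 1.25 to 49.7 CPM with a median of 21.8, and 15 of 18 libraries lay above the highest Baseline value. At FR8 it was 2.56 to 21.6 CPM with a median of 11.6, and 11 of 18 did so. By FR20 the FS animals had spread apart, from 2.40 to 111 CPM with a median of 7.79. Of these 18 libraries, 10 were below 10 CPM, while animals 13, 15, 6, 16 and 14 were at 111, 79.5, 54.6, 40.5 and 32.0 CPM. Animals 13, 14 and 16 were the ones with no Baseline liver value, so that their FR20 levels could not be set against their own start. The groups overlapped at every timepoint.

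In CPF animals RGS4 at B was 1.49, 3.27, 25.1, 1.22 and 2.18 CPM in animals 1 to 5, and animal 3 stood apart from the other 4. At FR2 the same animals were at 79.1, 45.3, 76.9, 13.3 and 49.1 CPM, so that 4 of 5 passed the highest CPF Baseline value and all 5 were above their own. At FR8 animals 2 to 5 were at 33.3, 29.6, 2.88 and 24.6 CPM. At FR20 the 5 animals were at 2.27, 8.44, 61.1, 1.94 and 14.2 CPM, and animal 3 was again the highest.

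**Figure D1:**
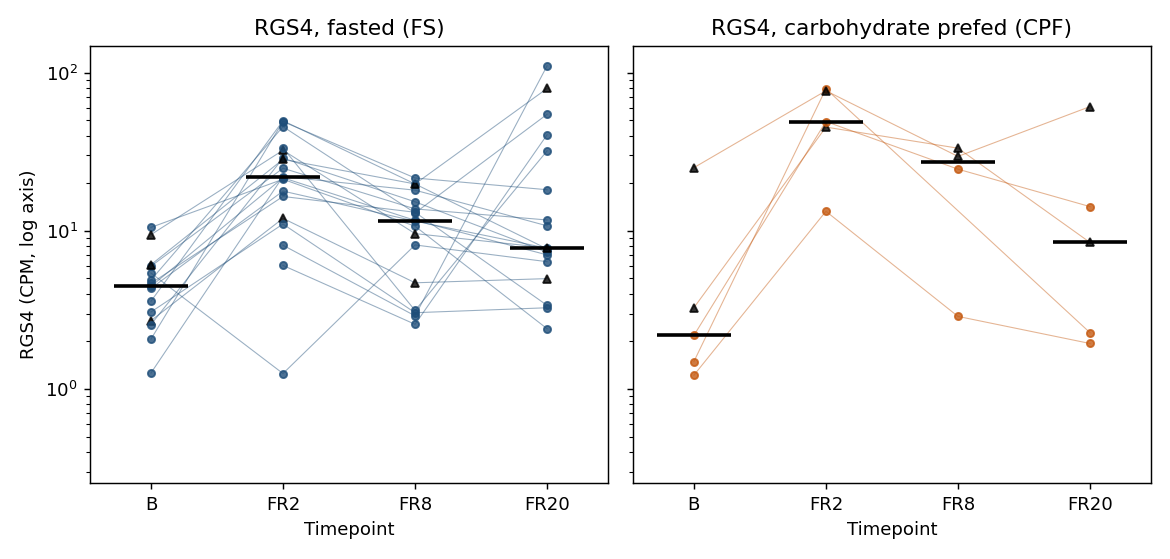
RGS4 in CPM (log axis) at B, FR2, FR8 and FR20 in FS (left) and CPF (right) animals, where each line is an animal, black triangles are animals that died and black bars are group medians. FS medians were 4.46, 21.8, 11.6 and 7.79 CPM, and single FS libraries at FR20 ran from 2.40 to 111 CPM.

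In the fit of log2 changes within animals, RGS4 at FR2vB was 2.11 higher in FS (SE 0.41, a 4.31-fold difference) and 3.86 higher in CPF (SE 0.80, 14.6-fold). This is the change that chose the members and is not a test. Over all 13667 genes 11% were called in FS FR2vB and 2.41% in CPF FR2vB. A gene was called where its Benjamini-Hochberg adjusted p in edgeR's quasi-likelihood test was under 0.05 and its absolute log2 change was at least 1. From FR2 to FR8 the fitted RGS4 value moved by −1.002 (SE 0.36) in FS and by −1.56 (SE 0.78) in CPF, given as values because they share the FR2 libraries.

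The FR8 and FR20 libraries did not enter the choice of members, but the Baseline libraries did, so that the RGS4 changes from B are not independent of it. In FS, 2 of 5 members were called at FR8vB, 1 higher and 1 lower, where 11.8% of all genes were called. RGS4 rose by 1.10 (SE 0.40, adjusted p 0.0232), a 2.15-fold change, and was higher than at B in 14 of 15 animals. In FS FR20vB, 3 of 5 members were called against 9.94% of all genes. RGS4 was 1.62 above B (SE 0.44, adjusted p 0.00289, 3.08-fold) and higher in 12 of 15 animals. The median change at FR20 within the 15 animals that had a Baseline was 0.85, below the fitted value, and animals 13, 14 and 16 also enter the fit. In CPF, 1 of 5 members was called at FR8vB, where 8.83% of all genes were. This was RGS4, which rose by 2.30 (SE 0.80, adjusted p 0.0434, 4.94-fold) and was higher in 4 of 4 animals. Leaving RGS4 aside, 1 of 4 members was called in FS FR8vB, 2 of 4 in FS FR20vB and 0 of 4 in CPF FR8vB by edgeR. Of these 4, RGS1, RGS3 and RGS5 were named by the study's called genes. The counts with and without RGS4 are therefore not free of selection beside the shares of all genes. DESeq2 also called 0 of the 4 in CPF FR8vB. There 0 of the 4 were under an unadjusted p of 0.05 by edgeR, against 3878 of all 13667 genes. In CPF FR20vB RGS4 had a log2 change of 1.40 (SE 0.73, adjusted p 0.334) and was higher than B in 5 of 5 animals.

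The FS FR8vB call of RGS4 was lost when FS animal 5, 10 or 17 was left out (log2 0.94 to 1.01, adjusted p 0.0508 to 0.0668). The CPF FR8vB call was lost without CPF animal 1, 2, 4 or 5 or FS animal 11. It was also lost with the 3 left-out Baseline libraries added (adjusted p 0.0684). Over all fits with an animal left out, whether or not the call was kept, this log2 change ran from 1.8 to 2.97. The FS FR20vB call was kept with any 1 animal left out, between 1.39 and 1.85. No fit left out FS animals 13, 14 and 16 together. From FR8 to FR20 RGS4 rose in them by 5.18, 3.29 and 3.90 on the log2 scale. By the order of group means RGS4 ran B, FR8, FR20, FR2 in FS and B, FR20, FR8, FR2 in CPF. Of the neighbouring steps, only B to FR8 in FS and FR8 to FR2 in CPF were wider than the larger of both SDs. FS animal 7 went against the rest, with RGS4 at 5.41 CPM at B and 1.25 CPM at FR2.

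Levels on the neutrophil list moved with RGS4, and came mostly from S100A8, S100A9 and S100A12 (means of 2.47, 4.64 and 3.88 CPM over the 88 libraries). The summed level of 6 identifiers on the neutrophil list (S100A8, S100A9 and S100A12, calcium-binding alarmins, with MMP8, MMP9 and CSF3R) was 0.142 to 14.1 CPM at B in FS (median 1.68), 2.14 to 53.6 at FR2 (median 15.6), 1.01 to 30.8 at FR8 (median 8.18) and 0.453 to 49.7 at FR20 (median 6.62). In CPF the medians were 1.92, 15.7, 12.6 and 5.45 CPM at B, FR2, FR8 and FR20, with ranges of 0.385 to 4.07, 12.9 to 85.97, 4.08 to 36.7 and 1.70 to 16.2. S100A9 and S100A12 took their symbols from the study's called genes, so their place in the sum is not independent of their having changed. The sum was thus highest at FR2 in both groups, like RGS4, whose rise at FR2 chose the members. Of the defining markers, CSF3R, the receptor for granulocyte colony stimulating factor, was at 0 in all 88 libraries, and MMP8, neutrophil collagenase, was at 0 in 77. Across the 88 libraries the log2 sum and log2 RGS4 had a Pearson r of 0.74, and of 0.61 once group and timepoint means were removed. With the other marker lists RGS4 had an r between −0.28 (macrophage) and 0.26 (mural). Once those means were removed, its r with the mural sum was 0.38. RGS1 then had an r of 0.46 with the neutrophil sum, so this relation was not particular to RGS4. The libraries come from 23 animals, share their depth between both measures and hold the FR2 rise that chose the members. These r values are therefore a description. FS animal 7, in which RGS4 was lower at FR2 than at B, had the highest FS Baseline sum (14.1 CPM) and the lowest at FR2 (2.14 CPM). The part of neutrophils in the RGS4 values was not tested.

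**Figure D2:**
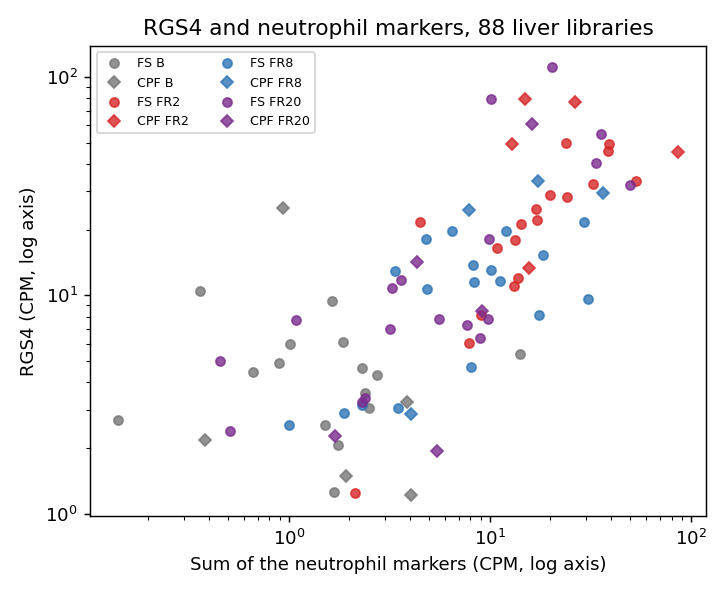
RGS4 against the summed neutrophil markers in each of the 88 libraries, both in CPM on log axes, with circles for FS, diamonds for CPF and color for timepoint. The Pearson r was 0.74 over all libraries, and the FS medians of RGS4 and of the sum were 4.46 and 1.68 CPM at B and 21.8 and 15.6 CPM at FR2.

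RGS1, found mostly in lymphocytes and other leukocytes and known to limit their response to chemokines, fell in fasted animals. At B it was 2.05 to 11.6 CPM in FS with a median of 7.08, and at FR2 it was 0.589 to 18.9 CPM with a median of 5.42. At FR8 it was 0.782 to 8.13 CPM with a median of 2.48, and 6 of 18 libraries were below the lowest Baseline value. At FR20 it was 0.291 to 19.1 CPM with a median of 2.30, and 7 of 18 were below. Animals 14 and 15 went the other way at FR20, with 19.1 and 15.2 CPM, and animal 14 had no Baseline liver value. The groups overlapped at each timepoint.

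RGS1 fell by 1.49 on the log2 scale in FS FR8vB (SE 0.33, adjusted p 2.79e-04, 2.80-fold), lower in 14 of 15 animals, and by 1.21 in FS FR20vB (SE 0.34, adjusted p 0.0037), lower in 13 of 15. Its symbol came from the study's own called genes, so these calls are not independent evidence that it changed. The FR8vB call was kept under every alternative tried. At FR20vB the log2 change was −0.93 when the 3 left-out Baseline libraries were added, and −0.66 (adjusted p 0.191) without animal terms, so that the call ended in both. In the order of FS means RGS1 ran FR8, FR20, FR2, B, and no neighbouring step was wider than the larger SD.

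In CPF the RGS1 levels of animals 1 to 5 were 7.56, 9.71, 11.1, 3.39 and 6.16 CPM at B and 9.66, 13.4, 17.5, 4.43 and 7.27 CPM at FR2, so that all 5 were higher than their own Baseline. At FR8 animals 2 to 5 were at 5.75, 14.2, 1.68 and 2.47 CPM, and only animal 3 was above its own Baseline. At FR20 the 5 were at 2.16, 7.41, 22.1, 3.97 and 5.71 CPM. The log2 change was −0.76 in CPF FR8vB (SE 0.63, adjusted p 0.449) and −0.13 in CPF FR20vB (SE 0.57, adjusted p 0.936).

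T and NK cell markers, from cells in which RGS1 is abundant, had summed levels of 21.9 to 57.3 CPM at B in FS, 14.98 to 43.2 at FR8 and 12.5 to 41.3 at FR20, over 5 identifiers. In FS FR8vB and FR20vB edgeR called 0 of the 5, with 3 under an unadjusted p of 0.05 in each. Of all 13667 genes, 6506 and 5939 were under it. The median log2 changes of the 5 were −0.54 and −0.76, against −0.00 and 0.04 over all genes. CD3D of this list is in the zero block, so its FS values include those zeros. B cell markers summed to 1.03 to 6.01 CPM at B and 0.281 to 3.62 at FR20 in FS, over 2 identifiers, of which CD79B was lower at FR20vB. Over the 88 libraries RGS1 had an r of 0.40 with the hepatocyte sum, 0.36 with the mural sum, 0.34 with the T and NK cell sum, 0.30 with the macrophage sum and 0.27 with the neutrophil sum, and values between −0.04 and 0.16 with the other lists. Once group and timepoint means were removed, the highest were 0.47 with the mural sum and 0.46 with the neutrophil sum. Their part in the RGS1 values was not tested.

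RGS16, an inhibitor of Gi and Gq signalling that is made in liver and other tissues, was higher at FR20 in fasted animals. At B it was 0.181 to 15.3 CPM in FS with a median of 1.85. At FR20 it was 1.62 to 15.6 CPM with a median of 7.62. In between it was 1.94 to 15.3 CPM at FR2 (median 3.99) and 0.813 to 9.86 CPM at FR8 (median 2.84) in the 17 animals other than animal 8, in which it was listed at 0 at both. The ranges overlapped almost wholly, but 11 of 15 animals were higher at FR20 than at their own Baseline, by a median of 1.84 on the log2 scale.

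In FS FR20vB RGS16 rose by 1.35 (SE 0.41, adjusted p 0.00821, 2.54-fold). This call was kept without the libraries with the zeros (log2 1.34, adjusted p 0.0041) and when any animal was left out, and ended only without animal terms (log2 0.77, adjusted p 0.172). At FR8vB it had a fitted change of 0.13 (SE 0.42, adjusted p 0.832), and of 0.27 (adjusted p 0.620) without the libraries with the zeros, while its median change within animals was 1.06. In FS FR20vFR8, where 1.46% of all genes were called, RGS16 was the 1 member called of 5, higher by 1.21 (SE 0.38, adjusted p 0.0381, 2.32-fold) and in 16 of 18 animals. Without the libraries of animal 8 that hold the zeros it was higher in 15 of 17, with a log2 change of 1.07 (adjusted p 0.0606), and was no longer called. That call also ended when any of 12 FS animals was left out and with the left-out Baseline libraries added (adjusted p 0.0665). At FR2vB the fitted values were 0.73 (SE 0.41) in FS, 0.86 (SE 0.38) without the libraries with the zeros, and 1.75 (SE 0.73) in CPF, as a description.

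In CPF the RGS16 levels of animals 1 to 5 were 2.87, 2.66, 2.996, 3.67 and 0.641 CPM at B, and 4.78, 27.3, 13.6, 4.18 and 2.38 CPM at FR2. At FR8 animals 2 to 5 were at 11.05, 2.48, 7.35 and 5.86 CPM, and at FR20 the 5 were at 8.40, 4.97, 5.87, 0.924 and 18.8 CPM. At B animals 1 to 4 lay close together and animal 5 was lower. Of the 5 animals, 4 were above the highest CPF Baseline value at FR2 and again 4 at FR20. The log2 changes were 1.23 in CPF FR8vB (SE 0.77, adjusted p 0.293) and 1.54 in CPF FR20vB (SE 0.76, adjusted p 0.293).

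RGS5, the RGS protein of pericytes and arterial smooth muscle, had its highest group means at FR20 in both feeding groups. In FS it was 0.621 to 12.1 CPM at B (median 4.39), 1.12 to 18.2 at FR2 (median 3.82), 1.74 to 9.29 at FR8 (median 3.62) and 1.32 to 17.2 at FR20 (median 5.01). In CPF it was 2.87, 2.66, 8.99, 1.36 and 5.64 CPM at B, then 1.72, 2.37, 8.11, 1.11 and 4.76 at FR2, 4.29, 9.28, 1.76 and 7.50 in animals 2 to 5 at FR8, and 8.28, 4.50, 15.8, 9.79 and 11.04 at FR20. All 5 CPF animals were higher at FR20 than at their own Baseline, and 3 of 5 passed the highest CPF Baseline value.

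No member was called in CPF FR20vB by edgeR's quasi-likelihood test, against 0.702% of all genes. At an unadjusted p under 0.05 there were 2 members, RGS5 and RGS16, where 16.5% of all genes passed. RGS5 had a log2 change of 1.43 (SE 0.41, adjusted p 0.0588, 2.70-fold), and was called by DESeq2 (adjusted p 0.0180), by edgeR's likelihood ratio test (adjusted p 0.0301), and when FS animal 7, 14 or 15 was left out. In FS FR20vB it had a change of 0.40 (SE 0.23, adjusted p 0.161), higher in 11 of 15 animals. With the 3 left-out Baseline libraries added this value was −0.36 (adjusted p 0.481), so that its direction rests on which Baseline libraries are used. Those 3 lacked albumin and held RGS5 at 38.7 to 68.7 CPM. In FS FR20vFR8 RGS5 had a change of 0.59 (SE 0.21, adjusted p 0.0766). In CPF FR20vFR8 0 of 5 members were called by either edgeR test or by DESeq2, where 0.022% of all genes were called by edgeR's quasi-likelihood test. There 1 member passed an unadjusted p of 0.05, against 10.9% of all genes. This was RGS5, at 1.09 (SE 0.44, adjusted p 0.335).

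Markers of mural cells, the pericytes and smooth muscle cells in which RGS5 is best known, had summed levels over 12 identifiers of 137 to 322 CPM at B, 104 to 282 at FR8 and 127 to 451 at FR20 in FS. In CPF they were 162 to 226 CPM at B, 117 to 279 at FR8 and 175 to 602 at FR20. Of 9 tested mural identifiers edgeR called 0 in FR8vB or FR20vB of either group, with at most 2 under an unadjusted p of 0.05. Of all 13667 genes, 2249 to 6506 were under it in these comparisons. MYH11, the smooth muscle myosin, was at 0 in all 88 libraries. TAGLN and MCAM of the mural list are in the zero block, so the FS sum at FR8 and the FS calls include its zeros. Over the 88 libraries RGS5 had an r of 0.49 with the mural sum, and of 0.49 over the 86 without the block. It had 0.53 with the endothelial sum and 0.48 with the stellate cell and fibroblast sum over the 88. The last of these sums had FS medians of 961 CPM at B, 541 at FR2, 488 at FR8 and 953 at FR20. Of its 6 tested identifiers, the matrix genes DCN (−1.07) and COL1A2 (−1.04) were lower in FS FR8vB, and COL1A2 was 1.28 higher in FS FR20vFR8, where the median of the list was 0.62 against 0.02 over all genes. Of all genes, 11.8% and 1.46% were called in these comparisons. COL1A2 is in the zero block, and without those libraries its values were −0.83, under the fold required, and 1.09. The part of these cells in the RGS5 values was not tested.

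RGS3, a widely expressed member that acts on Gi and Gq, held 11 to 144 counts per library, with a median of 43. In FS it was 1.99 to 8.52 CPM at B (median 3.97), 1.15 to 9.81 at FR2 (median 3.67), 2.41 to 4.65 at FR8 (median 3.51) and 2.12 to 8.24 at FR20 (median 4.19). In CPF it was 5.11, 4.73, 2.43, 4.34 and 4.23 CPM at B, 5.45, 1.54, 2.46, 3.49 and 3.38 at FR2, 5.02, 4.13, 3.04 and 3.70 in animals 2 to 5 at FR8, and 2.50, 8.07, 9.19, 3.05 and 6.08 at FR20. The log2 change was −0.26 in FS FR8vB (SE 0.18, adjusted p 0.272), −0.00 in FS FR20vB (SE 0.21, adjusted p 0.999) and 0.47 in CPF FR20vB (SE 0.33, adjusted p 0.501). With the 3 left-out Baseline libraries added, the FS FR8vB value was −1.01 (adjusted p 0.00721), and RGS3 was called there only in fits with these libraries. They lacked albumin and held RGS3 at 25.1 to 79.8 CPM.

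**Figure D3:**
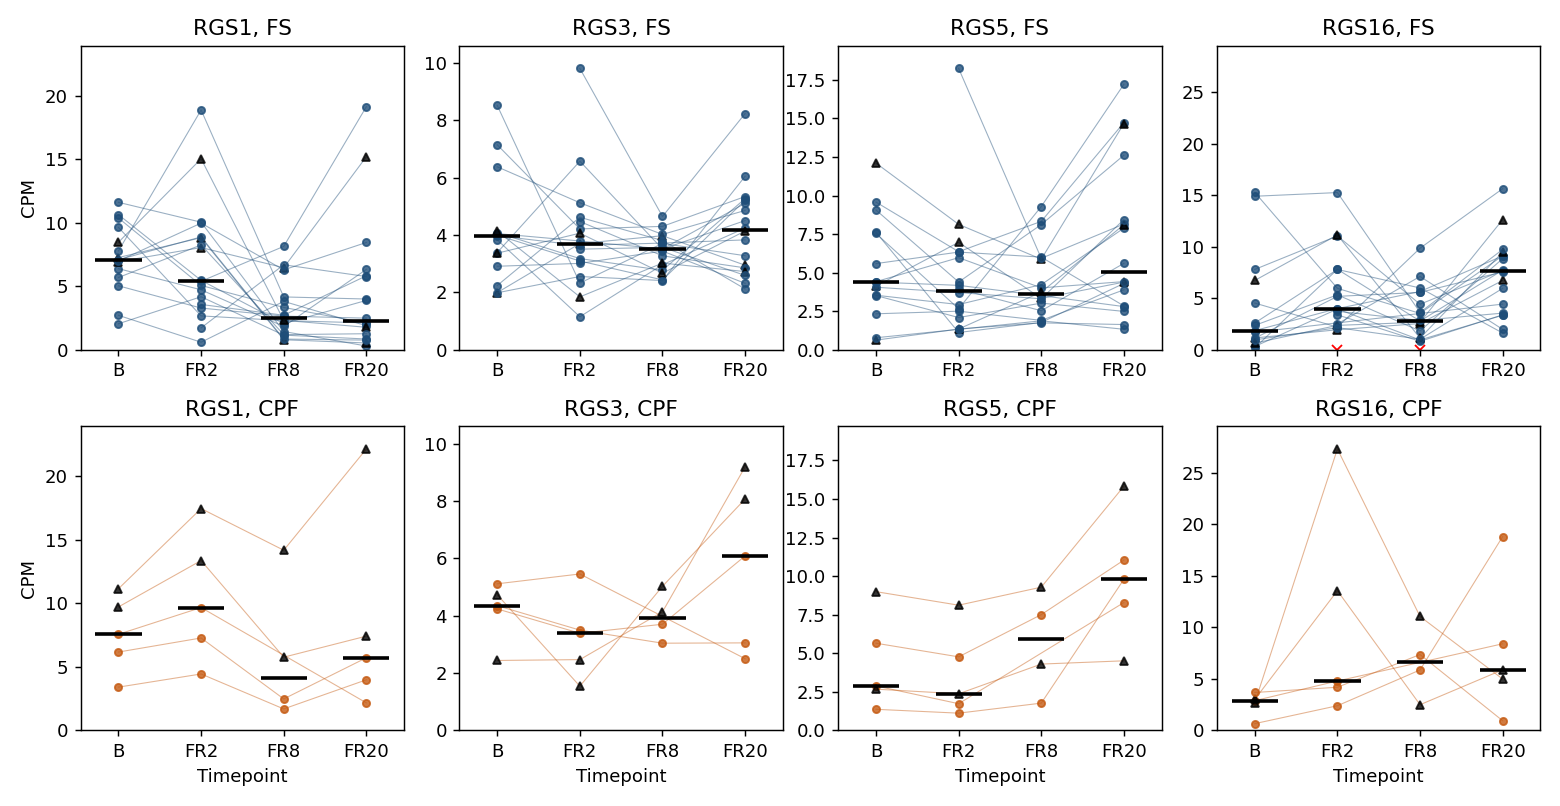
RGS1, RGS3, RGS5 and RGS16 in CPM (linear axes) at B, FR2, FR8 and FR20 in FS and CPF animals, with a line for each animal, black triangles for animals that died, black bars for medians and red crosses where RGS16 was listed at 0 in FS animal 8. The FS median of RGS1 was 7.08 CPM at B and 2.48 at FR8, and that of RGS16 was 1.85 at B and 7.62 at FR20.

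The 5 members thus did not move as a group. Among FS animals at FR20, RGS4 and RGS16 were called higher, RGS1 was called lower, and RGS3 and RGS5 were not called. Between members, the log2 levels of RGS1 and RGS4 had the highest r over the 88 libraries, 0.42, and 0.63 once group and timepoint means were removed. In FR8vB and FR20vB of the fasted animals the fitted changes of these genes nevertheless had opposite signs. RGS3 and RGS5 had an r of 0.31, and the other pairs lay between −0.24 and 0.16, the neighbouring genes RGS4 and RGS5 at 0.16. In the order of group means over both feeding groups, 4 of 30 neighbouring steps were wider than the larger SD: the RGS4 steps given above, RGS5 from FR8 to FR20 in CPF, and RGS16 from B to FR8 in CPF.

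**Figure D4:**
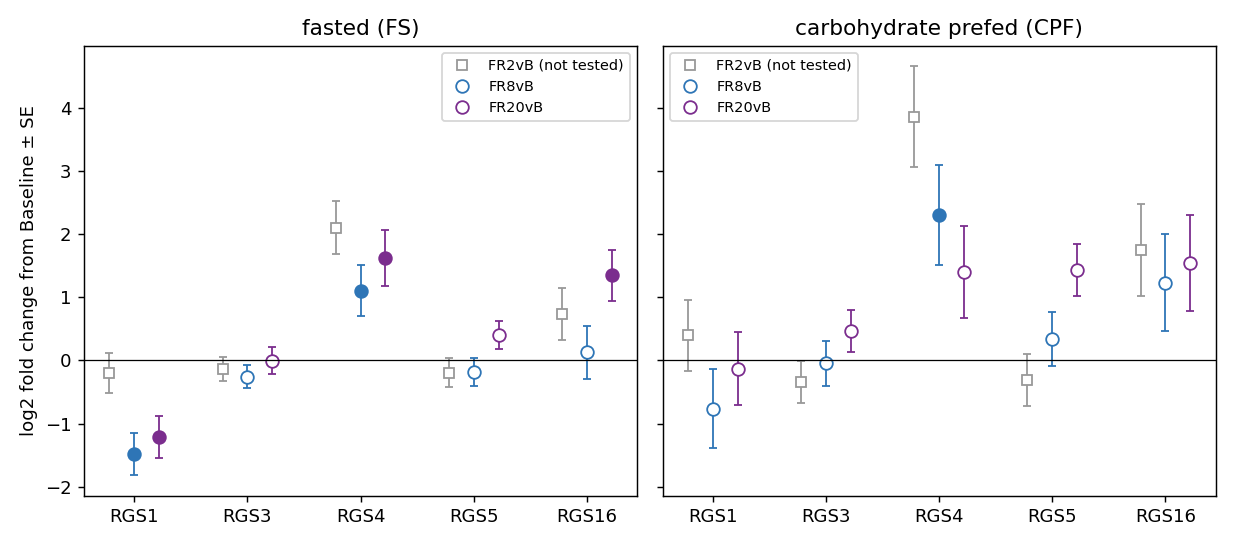
Fitted log2 change from Baseline with its SE for each member in FS and CPF, with gray squares for FR2vB (not tested), blue circles for FR8vB and purple circles for FR20vB, filled where called. In FS the filled points are RGS1 (−1.49 and −1.21) and RGS4 (1.10 and 1.62) at both later timepoints and RGS16 (1.35) at FR20vB, and in CPF RGS4 (2.30) at FR8vB.

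Whether prior feeding altered these changes was asked in 2 ways. For the CPF change minus the FS change, 0 of 5 members were called in FR8vB and 0 of 5 in FR20vB by edgeR's quasi-likelihood test, its likelihood ratio test or DESeq2, and 0% of all genes were called by the first. In FR8vB 0 members had an unadjusted p under 0.05, against 3.42% of all genes. The largest differences there were 1.20 for RGS4 (SE 0.88, adjusted p 0.999) and 1.10 for RGS16 (SE 0.87, adjusted p 0.999). In FR20vB 1 member had an unadjusted p under 0.05, against 3.81% of all genes, which was RGS5 with a CPF change 1.03 above the FS change (SE 0.46, adjusted p 1). RGS1 there differed by 1.08 (SE 0.67, adjusted p 1). The SEs of these differences ran from 0.38 for RGS3 in FR20vB to 0.88 for RGS4 in FR8vB. With a CPF animal left out, the RGS4 difference in FR8vB was 0.70 without animal 2 and 1.88 without animal 3, and the RGS5 difference in FR20vB was 0.63 without animal 4.

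With CPF set directly against FS at a timepoint, edgeR's quasi-likelihood test, its likelihood ratio test and DESeq2 called 0 of 5 members at B, FR8 or FR20. Among all genes the first called 0.0257% at B and 0% at the later timepoints. RGS4 at FR2 is given without a test, since these libraries entered the choice of members: it was 1.14 higher in CPF (SE 0.45). The other 4 members were not called at FR2, with 0 under an unadjusted p of 0.05. At B RGS4 was 0.52 higher in CPF (SE 0.52, adjusted p 0.916), but −1.18 without CPF animal 3, so that 1 animal set the direction. At FR8 RGS4 was 1.01 higher in CPF (SE 0.48, unadjusted p 0.0478, adjusted p 0.955), and this was the 1 unadjusted p under 0.05 of the members at B, FR8 and FR20. At FR20 it was −0.40 (SE 0.82, adjusted p 1), with −1.77 without CPF animal 3 and −0.02 without FS animal 13. The share of all genes with an unadjusted p under 0.05 was 7.66% at B, 5.58% at FR2, 5.17% at FR8 and 3.25% at FR20.

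For RGS16 and RGS1 the size of the difference between CPF and FS also rested on single animals. RGS16 was 0.97 higher in CPF at FR2 (SE 0.55, adjusted p 0.943), 0.89 higher without FS animal 8, and 0.22 higher without CPF animal 2, whose level was 27.3 CPM. RGS1 was 0.91 higher at FR8 (SE 0.53, adjusted p 0.955) and 0.85 higher at FR20 (SE 0.65, adjusted p 1). Without CPF animal 3 these values were 0.03 and 0.07.

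The labels also gave survival. With feeding group as a covariate, 0 of 5 members were called between the 5 animals that died and those that lived at B, FR2, FR8 or FR20 by edgeR's quasi-likelihood test, its likelihood ratio test or DESeq2, and 0% of all genes by the first. At B RGS4 was 2.70 to 25.1 CPM with a median of 6.10 in the 5 that died, and 1.22 to 10.5 CPM with a median of 3.59 in the 15 that lived. The log2 difference was 1.45 (SE 0.52, unadjusted p 0.0111, adjusted p 0.413), before the injuries were made. The ranges overlapped, and without CPF animal 3, which held the highest value, the difference was 0.62. It was the 1 member under an unadjusted p of 0.05 at any timepoint, where 8.54% of all genes passed at B, 5.52% at FR2, 2.22% at FR8 and 5.22% at FR20. At FR2 RGS1 was 8.04 to 17.5 CPM in the animals that died and 0.589 to 18.9 in the 18 that lived, a log2 difference of 0.89 (SE 0.44, adjusted p 0.903). At FR20 RGS4 had a log2 difference of 1.21 (SE 0.86, adjusted p 0.939), which was 0.49 without CPF animal 3 and 0.54 without FS animal 15.

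The genes most alike in pattern were taken by the Pearson r of log2 CPM over the 88 libraries among 8133 genes with a symbol and a mean of at least 1 CPM. Those most like RGS4 were ADAMTS4, a secreted protease of the extracellular matrix (r = 0.78), CSRP2, a LIM domain protein (0.78), STC1, the secreted glycoprotein stanniocalcin (0.78), HTRA3, a secreted serine protease (0.77), and S100A8 (0.76). They were the same 5 genes over the 86 libraries without the block of zeros. RGS1 was most like DUSP1, a phosphatase that inactivates MAP kinases (0.77), and ARRDC2, an arrestin domain protein (0.74). RGS3 was most like CD63, a tetraspanin (0.60), and LGALS1, a galectin (0.60), and RGS5 like GRK5, a kinase of activated receptors (0.61), and the collagen chain COL5A2 (0.61). For RGS16 the nearest genes depended on animal 8: over 88 libraries they were MID1IP1 (0.69) and REXO2 (0.64), and over 86 they were PPP1R3C, a glycogen-targeting subunit of protein phosphatase 1 (0.59), and the hormone FGF21 (0.58).

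Among the other genes with an RGS domain, 13 of 21 listed had an identifier. The gene name table named 11, of which 8 were tested, and edgeR called 0 of the 8 in FR8vB or FR20vB of either group. At an unadjusted p under 0.05 there were 5 in FS FR8vB, 0 in FS FR20vB, 2 in CPF FR8vB and 0 in CPF FR20vB. Of all 13667 genes, 6506, 5939, 3878 and 2249 were under it in these comparisons. RGS14, which binds Gi and Ras family proteins, was 0.86 higher in FS FR8vB (adjusted p 0.0014), under the fold required, and 1.02 higher in CPF FR8vB (adjusted p 0.0921). RGS12, a large multidomain member, was 0.48 lower in FS FR8vB (adjusted p 0.00532), and SNX25, a sorting nexin with an RGS domain, was 0.43 higher (adjusted p 0.00598). SNX13 had a log2 value of −0.58 (adjusted p 0.0543), and it is another gene of the zero block, with −0.38 (adjusted p 8.71e-04) without those libraries. The values of RGS7, AXIN1, AXIN2 and SNX14 in FS FR8vB lay between −0.34 and 0.09, with adjusted p between 0.063 and 0.885. RGS10, named by the study's own lists, had −0.09 (adjusted p 0.779).

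Beyond the RGS genes, 7 lists of the pathway (other RGS domain genes, their partners, alpha subunits, beta and gamma subunits, receptors, effectors, and receptor kinases with arrestins) held 84 identifiers named by the gene name table, of which 70 were tested. In FS FR8vB 4 were higher and 2 lower, 8.57% of those tested, against the 11.8% of all genes. In FS FR20vB 2 were higher and 2 lower (5.71%), and in CPF FR8vB 2 were higher and 1 lower (4.29%). edgeR called 0 in CPF FR20vB and 0 in FS FR20vFR8, with 7 of 70 under an unadjusted p of 0.05 in each. Of all 13667 genes, 2249 and 2962 were under it. The shares called were no higher than those of all genes in the same comparison. SNX13, GNAI1, GNG11, EDNRA, ARHGEF12 and ARRB1 of these lists are in the zero block, so the FS counts include its zeros.

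Among 24 tested receptors, S1PR3, a sphingosine 1-phosphate receptor of vessels, rose by 1.67 in FS FR8vB (SE 0.46, adjusted p 0.00274) and 1.63 in FS FR20vB (adjusted p 0.0072). HRH1, the histamine H1 receptor, rose by 1.39 in FS FR8vB (adjusted p 0.0034) and 2.22 in CPF FR8vB (adjusted p 0.0427). ADRA1D, an alpha-1 adrenergic receptor coupled to Gq, fell by 1.20 in FS FR8vB (adjusted p 0.0133) and by 1.15 in FS FR20vB (adjusted p 0.0174). F2RL1, a protease-activated receptor, fell by 1.08 in FS FR20vB (adjusted p 0.0233). The median of the receptors was 0.00 in both, against −0.00 and 0.04 over all genes. BDKRB1, the inducible bradykinin receptor, and LPAR6, a lysophosphatidic acid receptor, took their symbols from the study's called genes: BDKRB1 was 1.502 higher in FS FR20vB (adjusted p 0.0366) and LPAR6 1.01 higher in CPF FR8vB.

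Of 7 tested alpha subunits and 4 tested beta and gamma subunits, edgeR called 0 in FR8vB or FR20vB of either group. At most 2 of either list were under an unadjusted p of 0.05 in a comparison, where 2249 to 6506 of all 13667 genes were. GNAI1 and GNG11 of these lists are in the zero block, so their FS values include its zeros. Of 16 tested effectors, ADCY4, an adenylyl cyclase, rose by 1.14 in FS FR8vB (adjusted p 8.27e-04), 1.03 in FS FR20vB (adjusted p 0.0027) and 1.60 in CPF FR8vB (adjusted p 0.0386). ITPR3, an inositol trisphosphate receptor that releases calcium, rose by 1.02 in FS FR8vB (adjusted p 2.43e-04). PLCB4, a phospholipase C driven by Gq, fell by 1.02 in FS FR8vB (adjusted p 0.0043), and had −0.98 without the libraries with the zero block, under the fold required. GPSM3, a modulator of Gi subunits in leukocytes, was the 1 of 5 tested partners and modulators called, lower by 1.07 in CPF FR8vB (adjusted p 0.0047). GNG7 (−1.03) and ITPR1 (−1.06) were lower in FS FR8vB but were named by the study's called genes. Of 6 tested receptor kinases and arrestins edgeR called 0 in these comparisons, with 4 under an unadjusted p of 0.05 in FS FR8vB and 3 in FS FR20vB. Of all 13667 genes, 6506 and 5939 were under it.

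The other marker lists set the tissue context. Hepatocyte markers summed to 68183 to 205730 CPM at B in FS and 14596 to 131195 at FR20. Of the 6, 3 were called lower in FS FR8vB and in FS FR20vB, with ALB by 1.43 and 2.22. Of all genes, 11.8% and 9.94% were called there in either direction. APOA1 of this list is in the zero block. The scavenger receptor MARCO, of liver macrophages, was 1.33 lower in FS FR8vB and 1.30 lower in FS FR20vB. In CPF FR8vB, where 8.83% of all genes were called, 3 of 5 T and NK cell markers (CD2, CD8A and CD5) were lower. Among neutrophil markers S100A8 rose by 2.57 in FS FR8vB (adjusted p 0.00208) and 1.94 in FS FR20vB (adjusted p 0.0367). The part of these shifts in the values of the members was not tested.

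The 3 left-out Baseline libraries differed from the liver libraries in the members too. Their striated muscle markers (ACTA1 and 3 others) summed to 19814, 30254 and 22167 CPM in FS animals 13, 14 and 16, against 0.414 to 41.1 CPM in the 15 FS Baseline liver libraries. In them RGS3 was 79.8, 25.1 and 61.5 CPM, against at most 8.52 CPM in liver. RGS5 was 45.9, 38.7 and 68.7 CPM, against at most 12.1 CPM. RGS4 was 12.04, 7.61 and 9.65 CPM and RGS16 2.85, 3.08 and 15.9 CPM, against highest liver values of 10.5 and 15.3 CPM, while RGS1, at 2.60, 8.05 and 2.22 CPM, stayed within the liver range. RGS3 and RGS5 were thus above every FS Baseline liver library in all 3.

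**Figure D5:**
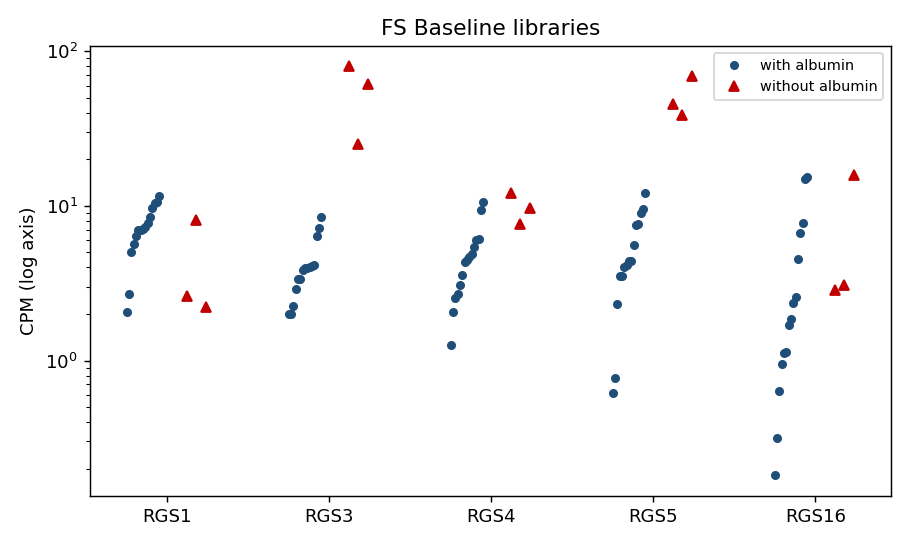
The 5 members in CPM (log axis) in the FS Baseline libraries, with dots for the 15 that hold albumin and triangles for the 3 that do not. RGS3 (25.1 to 79.8 CPM) and RGS5 (38.7 to 68.7 CPM) lay above every liver library in the 3, and RGS1 did not.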

How the data were processed

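The authors aligned reads to Sscrofa10.2 with TopHat 1.5.0 and made counts per Ensembl gene with HTSeq. The deposited values are these raw counts, in 1 column per library. Strand and overlap settings, and a sequencing batch, are not given in the sources used here. Symbols came from a gene name table (11804 identifiers) and the study's lists (680). The members and lists were chosen with earlier results of these data known. Of the marker lists, 2 genes are not reported here and were left out of the sums.

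Genes with summed CPM of at least 10 were tested with edgeR 4.0.16 (TMM, 2-sided quasi-likelihood F test, R 4.3.3) on 88 libraries, with animal terms and FR2, FR8 and FR20 terms per feeding group. CPFvFS and DiedvLived were fitted within timepoints (11688 to 12307 genes). Scripts were tested on simulated data. Within-animal changes were taken on log2 CPM (prior count 2). Same-number libraries come from the same animal, and their residual correlation had a median of 0.23 (93 of 126 pairs over 0.1), against −0.02 between animals, so animal terms were kept. Alternatives were DESeq2 1.42.0, edgeR's likelihood ratio test, other filters and scaling, no animal terms, other library sets and each animal left out. With an animal left out, the fit with animal terms kept the dispersions of the full fit. The fits within timepoints estimated them again. Genes named are the members, the called genes of the lists, the tested RGS domain genes and the genes most alike. Python 3.11.15 and matplotlib 3.10.9 made tables and figures.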

Additional observations from a re-analysis of the deposited data

Results flagged for a closer look

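In groups of 4 to 10 libraries, the highest and lowest value of each member were compared with the nearest other value by Dixon's ratio at the 95% level, in 20 groups. These were the CPF groups, since the FS groups were larger, so no FS value was compared in this way. At its nominal level chance marks about 1 in 20 groups. There were 3 such values, all in CPF animal 3, an animal that died: RGS4 at B was 25.1 CPM where the next highest was 3.27, RGS4 at FR20 was 61.1 CPM where the next was 14.2, and RGS1 at FR20 was 22.1 CPM where the next was 7.41.

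The other values marked came from the 3 FS Baseline libraries without albumin, each above the highest of the 15 FS Baseline liver libraries. In animal 13 RGS3 was 79.8, RGS4 12.04 and RGS5 45.9 CPM. In animal 14 RGS3 was 25.1 and RGS5 38.7 CPM. In animal 16 RGS3 was 61.5, RGS5 68.7 and RGS16 15.9 CPM, the last just above the liver maximum of 15.3.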

How the results depend on the processing

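No alternative reversed a called change. The count of members called in FS FR8vB (2) was 1 to 2 with an animal left out. With 91 or 92 libraries RGS3 was also called there by edgeR's quasi-likelihood test (log2 −1.01 and −1.025, adjusted p 0.00721 and 0.00568). In those fits RGS1 was no longer called in FS FR20vB (log2 −0.93 and −0.92). In FS FR20vB (3) the count was 1 with no replicate block, the fit without animal terms. That fit called 0 in FS FR20vFR8 (1 with animal terms; RGS16 adjusted p 0.124) and 0 in CPF FR8vB (1 with them; RGS4 1.74, adjusted p 0.169), and the pairing changed no other count by more than 1.5 times. The FS FR20vFR8 count was also 0 with 91, 92 or 86 libraries (RGS16 adjusted p 0.0665, 0.0634 and 0.0606), and 0 to 1 with an animal left out (0 without FS animal 1, 2, 3, 4, 5, 8, 9, 10, 12, 15, 17 or 18). The CPF FR8vB count was 0 with 91 or 92 libraries and with no filter on low counts (RGS4 adjusted p 0.0684, 0.0689 and 0.0565), and 0 to 1 with an animal left out. In CPF FR20vB (0) it was 1 by DESeq2 and by the likelihood ratio test, and 0 to 1 with an animal left out. The 92 and 86 library fits were chosen after seeing the data. Counts of the feeding and survival comparisons and of CPF FR20vFR8 stayed at 0 under all alternatives tried. Apart from where the alternative leaves out libraries, the cause of these changes was not tested. Depth limits single members, whose median counts per library were 43 to 141, and of the 4 libraries with RGS16 at 3 counts or fewer, 2 are those with the zero block.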
